A study of Mus musculus with 8 samples.

Results

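The genes of the interleukin 2 and interleukin 15 axis were examined in D1 dendritic cells (DCs). They were chosen by name and comprise 7 of the 22350 protein-coding genes annotated on the chromosomes of the peak lists. The ligand genes were Il2, Il21 and Il15, and the receptor genes were Il15ra, Il2ra, Il2rb and Il2rg. For each gene, every NFATc2 summit within 100 kb of a transcription start site (TSS) was taken, together with every H3K4me3 peak that overlapped the gene or lay within 1 kb of a TSS. D1 is a long-term DC line from C57BL/6 mouse spleen. NFATc2, named NFAT1 in the labels, was mapped 30 min after curdlan was added at 10 μg/ml; curdlan is a β-glucan and a ligand of dectin-1. The D1 cells of that experiment stably carried NFATc2 with a C-terminal V5 tag, delivered by lentivirus in addition to the cells' own NFATc2 and sorted for low GFP, and the tag was the target of the antibody. H3K4me3 was mapped in non-treated (NT) D1 cells, after 2 h with 10 μg/ml curdlan, and after 2 h of curdlan together with FK506, an inhibitor of calcineurin, the phosphatase that releases NFAT to the nucleus. Every condition was sequenced as 1 ChIP library with its own input, which leaves no replicate check, and no p-value between conditions was computed. An NFATc2 list without curdlan or with FK506 was not analysed here.

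IL-2, IL-15 and IL-21 are related cytokines that share the common gamma chain, encoded by Il2rg. IL-2 and IL-15 also share the beta chain, encoded by Il2rb, while the alpha chains encoded by Il2ra and Il15ra make binding to each ligand tight. IL-15 is shown to neighbouring T and NK cells bound to the alpha chain on the surface of DCs, and IL-2, best known as a T cell product, is also made by DCs after microbial stimulation. NFAT proteins bind DNA with a GGAAA core and often together with AP-1, whose consensus site is TGANTCA, and the site TTCNNNGAA is bound by STAT5, the factor that signals from the IL-2 and IL-15 receptors. H3K4me3 is a histone mark found at the starts of active genes.

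The study's text counts more NFATc2 peaks than the list used here, and sites outside that list were not analysed here. The list held 9438 peaks and the H3K4me3 lists held between 14872 and 15799, from 14377535 to 21289349 ChIP tags per library. The cell type was checked on the NT list: 9 of 10 markers of DCs and myeloid cells had an H3K4me3 peak within 1 kb of a TSS, Flt3 being the exception, as did 49.0% of all protein-coding genes. Such a peak was found at 0 of 8 T cell, 0 of 4 NK cell and 0 of 4 B cell markers. The last 3 lists of markers had none with curdlan or with FK506 added either, where 48.9% and 48.7% of genes had one.

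The sequences that carry the NFATc2 results are given first, on mm9, from 5′ to 3′ on the strand of the listed gene. Capitals mark the motifs that lie within 100 bp of a summit or in a promoter: GGAAAA (on the other strand TTTTCC), the AP-1 site with G in its middle, and the STAT5 site. The first pair is the window around the Il2 summit (chr3:37027166-37027366) and the 300 bp before the Il2 TSS (chr3:37024882-37025181). The window held none of these motifs, but the called peak held 2 copies of GGAAAA outside it, the nearest 129 bp from the summit. The promoter held 3 copies of GGAAAA and no summit.
Il2 summit window: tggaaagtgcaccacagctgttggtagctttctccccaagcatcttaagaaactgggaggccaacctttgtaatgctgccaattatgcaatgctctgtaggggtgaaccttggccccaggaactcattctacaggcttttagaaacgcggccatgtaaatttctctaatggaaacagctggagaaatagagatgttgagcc
Il2 promoter: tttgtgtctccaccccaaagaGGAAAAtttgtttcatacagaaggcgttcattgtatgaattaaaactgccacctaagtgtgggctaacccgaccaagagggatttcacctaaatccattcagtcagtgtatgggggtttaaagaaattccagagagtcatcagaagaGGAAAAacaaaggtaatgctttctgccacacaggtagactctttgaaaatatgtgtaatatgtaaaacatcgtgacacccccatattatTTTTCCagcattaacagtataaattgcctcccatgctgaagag

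Next come 4 windows of the Il2ra cluster, shown because each had another set of motifs. The window 7.60 kb upstream (chr2:11556720-11556920) held GGAAAA beside TGAGTCA, and the one that ends at the TSS (chr2:11564306-11564418) held none. The intronic window at +2.65 kb (chr2:11567025-11567225) held 2 copies of TTCNNNGAA, and the intronic window at +8.90 kb (chr2:11573274-11573474) held 2 copies of TGAGTCA.
Il2ra, 7.60 kb upstream: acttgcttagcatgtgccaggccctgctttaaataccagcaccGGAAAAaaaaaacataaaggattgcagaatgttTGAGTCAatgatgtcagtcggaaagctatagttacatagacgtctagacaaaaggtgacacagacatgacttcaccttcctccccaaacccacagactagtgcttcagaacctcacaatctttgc
Il2ra, TSS: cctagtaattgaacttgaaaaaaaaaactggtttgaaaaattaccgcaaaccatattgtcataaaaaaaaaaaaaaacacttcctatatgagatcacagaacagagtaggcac
Il2ra, intron, +2.65 kb: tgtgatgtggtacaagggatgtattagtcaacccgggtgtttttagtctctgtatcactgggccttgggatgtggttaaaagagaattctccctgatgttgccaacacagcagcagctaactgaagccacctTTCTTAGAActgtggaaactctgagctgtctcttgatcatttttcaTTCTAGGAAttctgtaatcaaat
Il2ra, intron, +8.90 kb: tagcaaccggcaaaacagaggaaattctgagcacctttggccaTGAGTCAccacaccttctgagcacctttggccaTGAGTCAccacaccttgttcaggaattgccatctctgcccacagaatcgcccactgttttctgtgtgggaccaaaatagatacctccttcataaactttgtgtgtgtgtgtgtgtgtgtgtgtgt

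The last pair begins with the Il15ra intron window at +802 bp (chr2:11628177-11628377), the only NFATc2 site within 10 kb of Il15ra. The other window (chr15:78422335-78422535) had the most tags within 100 kb of any of these genes. It lay 96.9 kb upstream of Il2rb but 5042 bp upstream of Cyth4, its nearest gene.
Il15ra, intron: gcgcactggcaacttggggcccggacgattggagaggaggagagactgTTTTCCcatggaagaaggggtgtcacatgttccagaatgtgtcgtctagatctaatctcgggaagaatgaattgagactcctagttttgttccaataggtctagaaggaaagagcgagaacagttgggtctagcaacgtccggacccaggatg
Il2rb, 96.9 kb upstream: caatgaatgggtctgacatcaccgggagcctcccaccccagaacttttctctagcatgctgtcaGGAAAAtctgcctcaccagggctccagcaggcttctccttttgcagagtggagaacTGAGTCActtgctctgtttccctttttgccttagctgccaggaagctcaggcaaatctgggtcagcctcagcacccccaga

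NFATc2 summits lay within 100 kb of 5 of the 7 genes, and 55.4% of all protein-coding genes had such a summit. There were 17 distinct summits, since neighbouring genes shared 8 of them. Il2 had 3, Il21 had 3, Il15ra and Il2ra each had 6, Il2rb had 7, and Il15 and Il2rg had 0. Over all genes the median was 1 and the 90th percentile was 4. At least 3 summits were found at 20.1% of genes, at least 6 at 3.86% and at least 7 at 2.20%. With the distance doubled to 200 kb, Il2 and Il21 had 4 summits, Il15ra 7, Il2ra and Il2rb 8, and Il15 and Il2rg still 0.

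**Figure D1:**
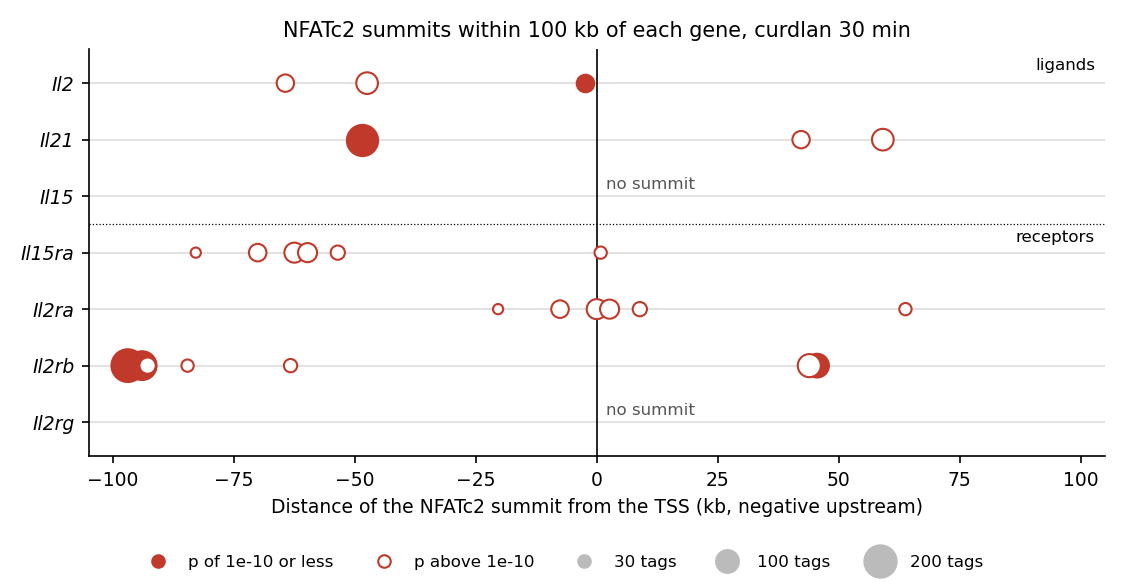
NFATc2 summits within 100 kb of each gene after 30 min of curdlan, by distance from the TSS in kb (x axis) and by gene (y axis). The area of a point is its tag count, filled points have a p-value of 1e-10 or less, and summits in reach of 2 genes are drawn at both. Il15 and Il2rg had no summit, Il2ra had 4 within 10 kb, and the points with the most tags lay far upstream of Il2rb and Il21.

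**Figure D2:**
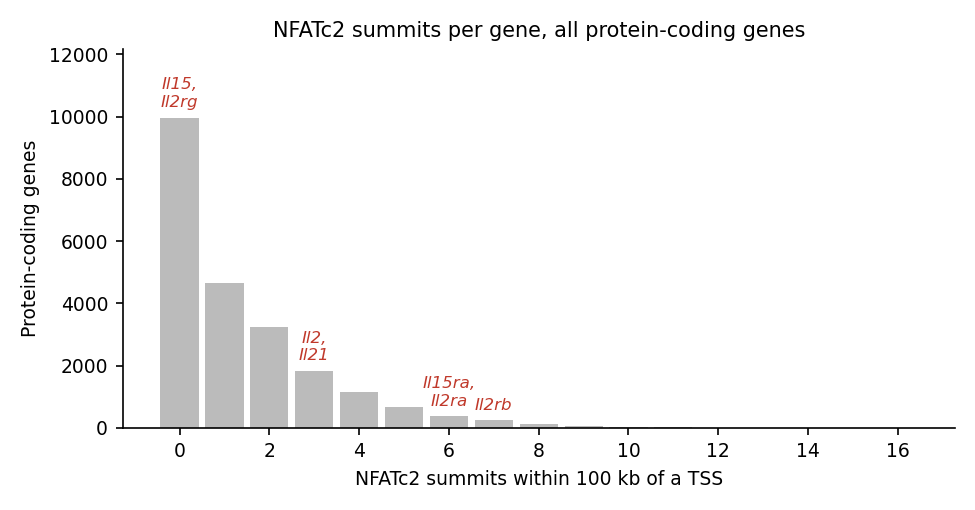
Number of protein-coding genes (y axis) by number of NFATc2 summits within 100 kb of a TSS (x axis), with the 7 listed genes written above their bars. Il15 and Il2rg stood in the bar at 0, Il2 and Il21 at 3, Il15ra and Il2ra at 6 and Il2rb at 7.

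Il2, the ligand gene of the first receptor, lies on chromosome 3 (chr3:37019445-37024881, minus strand). Its nearest summit was intergenic, 2385 bp upstream of the TSS, and its peak spanned 1323 bp (chr3:37026604-37027926). It was made of 59 tags (95% exact Poisson interval 44.9 to 76.1, counting error only). MACS, the peak caller, gave it a fold enrichment of 10.4 over the local background at a p-value of 6.2e-12. As many tags or fewer were held by 46.4% of all NFATc2 peaks, so its tag count was middling. The other sites in reach were 47.5 kb upstream with 90 tags (p-value 9.7e-07) and 64.4 kb upstream with 58 tags (p-value 3.3e-06). All 3 sites lay upstream of Il2 and between genes. The nearest TSS to the sites with 90 and 58 tags was not that of Il2 but that of Gm12532, at 9446 and 7449 bp.

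The study's primers for NFATc2 ChIP-PCR at Il2 were matched to mm9, because they show which part of the peak that assay read. The reverse primer is labelled IL12-R in the study, but both primers matched the Il2 locus and were treated as a pair.
Forward primer: tggagaactatcccagaacca
Reverse primer: aatgttggatgttgggcaat
The product was 159 bp long (chr3:37026656-37026814) and lay from 1775 to 1933 bp upstream of the TSS. It was inside the called NFATc2 peak, and its nearer end was 452 bp from the summit.

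Il21, whose product acts on B, T and NK cells, starts 106.659 kb from the TSS of Il2 (chr3:37121681-37131540, minus strand). The sites with 90 and 58 tags lie between the genes, 59.1 and 42.2 kb downstream of the Il21 TSS. The third site was 48.5 kb upstream of Il21 (chr3:37179464-37180993) and was much taller, with 187 tags (161 to 216), 19.8-fold enriched at a p-value of 1.1e-36. As many tags or fewer were held by 92.6% of NFATc2 peaks. The nearest TSS of any gene was that of AL691478.1, at 24225 bp. The nearest coding TSS to it was that of Cetn4, a centrin gene, at 29321 bp, so its assignment to Il21 rests on the 100 kb distance alone.

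Il15 (chr8:84855536-84927121, minus strand), which encodes the cytokine that sustains NK and memory T cells, had no NFATc2 summit within 200 kb. The nearest lay 371 kb upstream of its TSS, was closest to Zfp330, and had 30 tags. Among the ligand genes, then, the sites stood in the Il2 and Il21 locus alone.

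Il2ra (chr2:11564419-11614818, plus strand) and Il15ra (chr2:11626914-11655613, plus strand) are neighbours with TSSs 62.5 kb apart, so all 6 summits were in reach of both. For 4 of them Il2ra was the nearest gene. The summit 7599 bp upstream of Il2ra had 59 tags and was 9.29-fold enriched (p-value 1.3e-08). The summit 13 bp upstream of the TSS had 77 tags (60.8 to 96.2) and a p-value of 1.8e-06, with the lowest fold enrichment of the 17 summits, 5.99. In the introns, the summit at +2648 bp had 70 tags (p-value 2.2e-09) and the summit at +8897 bp had 39 tags (p-value 1.7e-06). Il2ra, which had 4 summits within 10 kb of a TSS, was among the 59 genes, or 0.264% of all, with as many or more. Each of these 4 peaks had a modest tag count, between the 23.4th and the 60.7th percentile of all NFATc2 peaks. The remaining site upstream, at 20.4 kb from Il2ra, had 20 tags and was nearest to the predicted gene Gm17355.

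Il15ra had 1 summit within 50 kb, in an intron 802 bp downstream of the nearest of its 16 TSSs. It had 29 tags (19.4 to 41.6) and 11.0-fold enrichment (p-value 3.8e-06). As many tags or fewer were held by 11.0% of NFATc2 peaks. Neither Il2ra nor Il15ra had a summit within 100 kb with a p-value of 1e-10 or less, and the nearest such summits were 328 and 390 kb upstream of these genes.

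**Figure D3:**
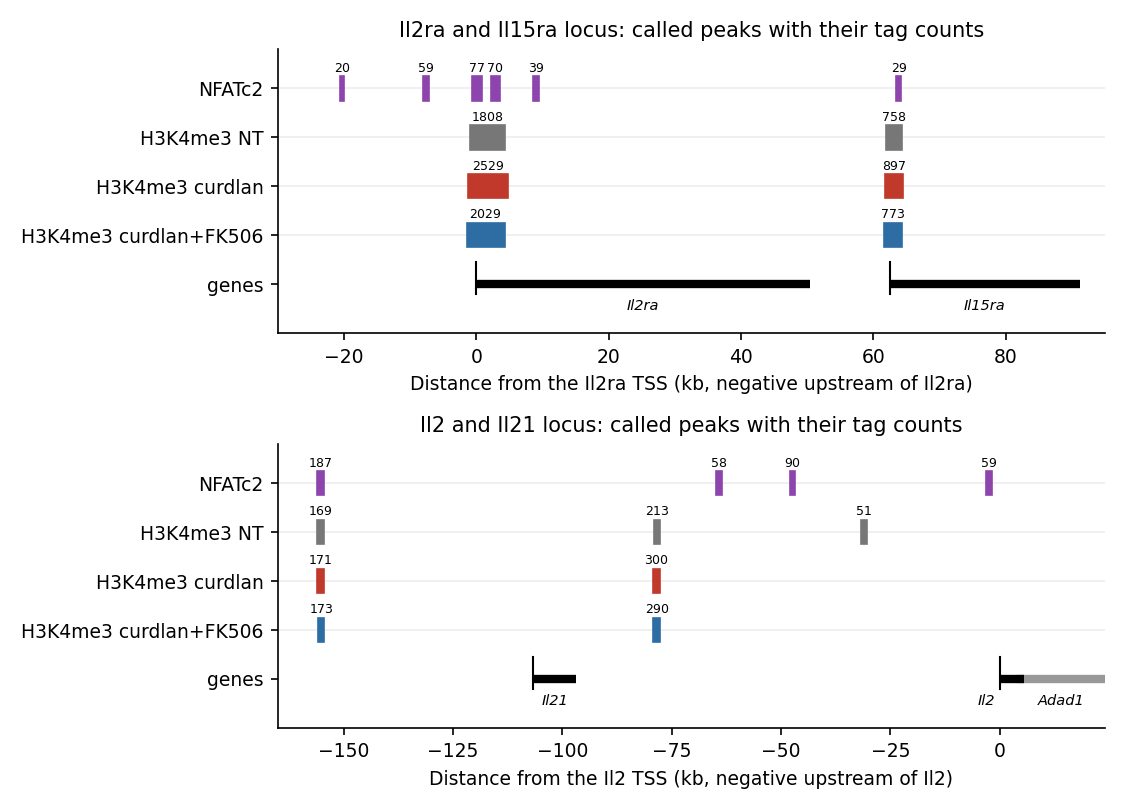
Called peaks at the Il2ra and Il15ra locus (upper panel) and the Il2 and Il21 locus (lower panel), by distance from the TSS of Il2ra or Il2 in kb, with tag counts above the peaks, 1 row per list and the genes below. Boxes are peak intervals, drawn with a thin outline that keeps narrow ones visible, vertical ticks are TSSs, and predicted genes are left out. At Il2ra 2 NFATc2 peaks lay in the H3K4me3 peak of all 3 conditions, while the peak next to Il2 lay outside called H3K4me3 peaks.

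Il2rb (chr15:78310983-78325496, minus strand), the signalling chain shared by IL-2 and IL-15, had 7 summits within 100 kb, the most of the 7 genes, but 2 within 50 kb, where Il2ra had 5, and none within 10 kb. At 200 kb both had 8. No summit had Il2rb as its nearest gene. Downstream of it, 2 summits lay in an intron of Tmprss6, a serine protease gene, at 43.9 kb (102 tags, p-value 1.5e-07) and 45.5 kb (108 tags, p-value 1.5e-22), and Kctd17 had the nearest TSS. Upstream there was 1 summit near Gm6723 at 63.3 kb (34 tags), 1 near Rac2, a GTPase gene of blood cells, at 84.6 kb (29 tags), and 3 near Cyth4. The Cyth4 sites had 51 tags at 92.9 kb, 159 tags at 94.0 kb (p-value 8.8e-54) and 206 tags (179 to 236) at 96.9 kb (p-value 2.3e-70). The last had a fold enrichment of 46.5, stood at or above 94.3% of NFATc2 peaks by tags, and lay 5042 bp upstream of Cyth4. The strongest sites in reach of Il2rb were thus at the far edge of the window and beside other genes.

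Il2rg (chrX:98459717-98463594, minus strand), the common gamma chain, had no NFATc2 summit within 200 kb. The nearest was 373 kb upstream, in an intron of Ogt, with 34 tags.

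Set side by side, ligand loci held 4 distinct summits and receptor loci 13. Tags at ligand summits ran from 58 to 187 (median 74.5) and at receptor summits from 20 to 206 (median 59). The ranges overlapped. A p-value of 1e-10 or less was met by 2 of 4 ligand summits and 3 of 13 receptor summits, beside 50.4% of all NFATc2 summits. By gene, 3 of the 7 had such a summit within 100 kb, beside 37.9% of all genes. All 4 ligand summits were intergenic, while 8 receptor summits were intergenic and 5 were in introns, and none lay in an exon. One of the 7 genes had the nearest TSS for 1 of 4 ligand summits and for 5 of 13 receptor summits, the latter all at Il2ra or Il15ra.

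Motifs were read on either strand within 100 bp of each summit. GGAAAA was found at 8 of the 17 summits, beside 45.6% of all NFATc2 summits. TGANTCA was found at 4 of 17, beside 21.8%, and TTCNNNGAA at 2 of 17, beside 12.0%. At the site 47.5 kb upstream of Il2 a TGANTCA copy began 3 bp from the summit, and that peak held no GGAAAA. At the intronic site of Tmprss6 with 108 tags, GGAAAA ended 1 bp from the summit and a further copy lay within 100 bp. The summit at +2648 bp of Il2ra and the summit with 102 tags in Tmprss6 were those with TTCNNNGAA. The tallest site of the Il2 and Il21 locus, with 187 tags, had none of the 3 motifs in its whole peak. For NFAT only GGAAAA was counted, and copies of the shorter GGAAA core were not.

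In the 300 bp before the TSS the order of the genes was another. GGAAAA was present in 5 of the 7 promoters and in 25.0% of all promoters. Il2 had 3 copies, starting at −279, −132 and −43 bp, Il21 and Il15 had 2 copies each, Il15ra and Il2rg had 1, and Il2ra and Il2rb had 0. Il2ra, the gene with a summit at its TSS, was therefore without this motif in these 300 bp. The NFATc2 peak over that TSS held 2 copies outside them, the nearest 385 bp from its summit. Il15, with 2 copies before its TSS, had no summit in reach. TGANTCA and TTCNNNGAA were in none of the 7 promoters, and in 7.12% and 8.23% of all promoters. A match of letters is a description of the sequence and does not show binding.

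H3K4me3 divided the genes differently. Il15, Il15ra, Il2ra and Il2rg had a peak over the TSS in all 3 conditions, and Il2, Il21 and Il2rb had none in any. The share of protein-coding genes with a peak was 51.5% in NT, and it was 51.2% and 51.1% in the curdlan lists without and with FK506. All 3 lists held a peak at 50.1% of genes and no list did at 47.7%. The 2 genes without an NFATc2 summit, Il15 and Il2rg, were thus both marked, and 3 of the 5 genes with summits were not. Over all genes the shares were 73.9% with a summit within 100 kb among those marked in every list, and 35.5% among those marked in none.

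The nearest H3K4me3 peak to Il2 in NT cells was one of 51 tags at a gap of 30.3 kb, with an FDR of 8.2%, above a limit of 5%, and the other lists lacked it. Their nearest peaks left gaps of 77.8 kb after curdlan and 77.6 kb with FK506 added. The study's primer pair for H3K4me3 ChIP-PCR at Il2 fell within this region without a called peak.
Forward primer: catcccatctataggcaatacctt
Reverse primer: gaaactcactcacctgcttgg
Its product (chr3:37024468-37024626) was 255 to 413 bp downstream of the TSS, and no list held an H3K4me3 peak there. An absent peak means a signal under the caller's threshold, since the lists hold only regions that passed it. The study itself reports that H3K4me3 at Il2 rose with curdlan and was lower with FK506, by ChIP-PCR and in its ChIP-seq tracks. Signal below the threshold is not in the lists, so it could not be set beside that report.

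At Il21 the nearest H3K4me3 peak was 17.4 to 17.7 kb away, beyond the 3′ end of the gene and 28097 to 28185 bp downstream of its TSS. Its tags numbered 213 in NT cells, 300 after curdlan and 290 with FK506 added. Scaled to the size of the library (RPM, ChIP tags of the peak over all ChIP tags), the values were 12.8, 14.1 and 14.9. At Il2rb a peak of 93 tags near C1qtnf6 left a gap of 19.4 kb in NT. The gap was 36.1 kb after curdlan, to a peak of 145 tags also near C1qtnf6, and 30.4 kb with FK506 added, to a peak of 206 tags near Kctd17. None of the 3 genes without a called peak gained one after 2 h of curdlan.

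Il2ra carried the largest H3K4me3 peak of the group. It held 1808 tags in NT cells, 2529 after curdlan and 2029 with FK506 added. In RPM the values were 109, 119 and 104, and the peak was 5336, 5937 and 5736 bp long. Among all genes with a peak it stood above 92.1%, 95.3% and 93.7% by tags and above 91.5%, 92.5% and 92.4% by length. By fold enrichment it ranked much lower, above 28.3%, 46.3% and 23.1%. In NT cells the peak reached from 1011 bp upstream to 4324 bp downstream of the TSS, over 2 of the NFATc2 summits.

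Il2rg held 631 tags in NT cells, 1259 after curdlan and 1058 with FK506 added, or 37.9, 59.1 and 54.3 RPM. The NT value was the low one, and the values with curdlan lay close together. The peak was 3192 bp long in NT cells, 4513 bp after curdlan and 4381 bp with FK506 added. Most of the added length was inside the gene, where the edge lay 972 bp further from the TSS with curdlan and 820 bp further with FK506 added, against 349 and 369 bp on the upstream side. By tags Il2rg stood above 41.3% of marked genes in NT and above 72.1% with curdlan. By fold enrichment the order was the other, above 84.2% in NT and above 29.9% with curdlan. The predicted gene Gm20489 overlaps Il2rg and takes the same peak.

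Il15 held 779 tags in NT cells, 872 after curdlan and 716 with FK506 added, or 46.8, 41.0 and 36.8 RPM, in peaks of 3170, 3018 and 2951 bp. Il15ra held 758, 897 and 773 tags in the same order, or 45.5, 42.1 and 39.7 RPM, in peaks of 2423, 2728 and 2811 bp. Both genes stood near the middle of the marked genes by tags, between the 46.1st and the 54.1st percentile. By fold enrichment they were spread more widely. In NT, curdlan and curdlan with FK506, Il15 stood above 17.6%, 12.1% and 50.8%, and Il15ra above 26.7%, 66.4% and 94.2%.

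**Figure D4:**
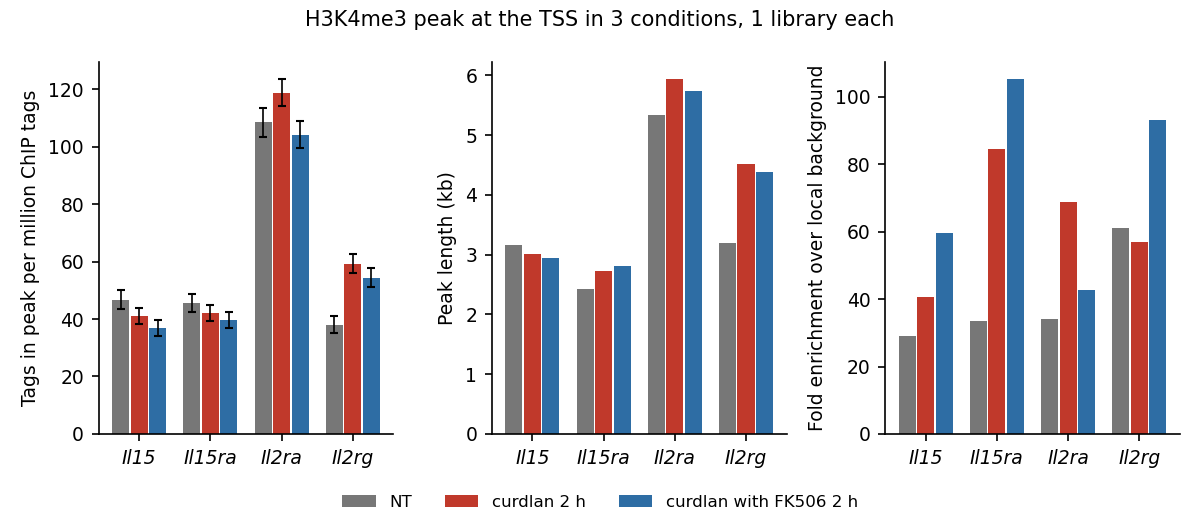
H3K4me3 peak at the TSS of the 4 marked genes in NT, curdlan and curdlan with FK506, as RPM, tags in the peak scaled to the library (left), peak length in kb (middle) and fold enrichment (right). Bars are single libraries, and error bars on the left are 95% exact Poisson intervals, counting error only. Il2ra had the most tags in each condition, Il2rg had more tags with curdlan than in NT, and fold enrichment gave other orders of the conditions than tags.

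To see how the mark at these genes changed with dectin-1 activation, the difference between curdlan and NT was read as the log2 ratio of fold enrichment, centred on the median of all 10815 genes with a peak in both lists, because that median itself moved by 0.73. Past 1.5-fold were 14.4% of genes upward and 14.8% downward. Il15ra, with fold enrichments of 33.5 and 84.7, was at 0.60 and past 1.5-fold. Il2rg, with 61.1 and 56.8, was at −0.84 and past it downward. Il2ra, with 34.2 and 68.9, was at 0.28 and Il15, with 29.2 and 40.6, at −0.26. In RPM, also centred, where 5.3% of genes were past 1.5-fold upward and 1.67% downward, the calls were others: Il2rg was at 0.77 and the one gene past 1.5-fold, Il2ra was at 0.25, Il15ra at 0.01 and Il15 at −0.07. The direction for Il2rg was therefore opposite in the 2 measures. Its ratio of RPM before centring was 1.56 (95% exact binomial interval 1.42 to 1.72, counting error only), and that of Il2ra was 1.09 (1.03 to 1.16).

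The 2 measures differed in spread over all genes. For curdlan against NT the central 90% of genes ran from −0.94 to 0.94 in fold enrichment and from −0.40 to 0.61 in RPM, so Il2rg lay inside the range of the first and outside that of the second. Fold enrichment also depends on the input libraries, which held 12085435 tags in NT, 9309800 with curdlan and 9917958 with FK506 added. Their part in the result was not tested.

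The comparison of curdlan with FK506 against curdlan reads what differed when the calcineurin inhibitor was added. Here 10809 genes had a peak in both lists, of which 14.0% were past 1.5-fold upward and 14.6% downward in fold enrichment. Il2rg, at 93.1 after 56.8, was at 0.98 and Il15, at 59.7 after 40.6, was at 0.82, both past 1.5-fold. Il15ra was just under it at 0.58, and Il2ra, at 42.8 after 68.9, was at −0.42. In RPM, where 0.759% of genes were past 1.5-fold upward and 2.31% downward, none of the 4 was past it, with values of −0.11 for Il15, −0.04 for Il15ra, −0.14 for Il2ra and −0.08 for Il2rg. The signs of Il15, Il15ra and Il2rg were opposite in the 2 measures, and Il2ra was lower with FK506 in both. The uncentred ratio of RPM was 0.88 (0.83 to 0.93) for Il2ra and 0.92 (0.846 to 0.998) for Il2rg. Per kb of peak, RPM put 1.66% of genes past 1.5-fold upward and 1.45% downward with curdlan, and 0.564% each way with FK506. Peak length put 5.1% upward and 1.33% downward with curdlan, and 1.43% and 3.27% with FK506. None of the 4 genes was past it in either. Both contrasts share the curdlan library.

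**Figure D5:**
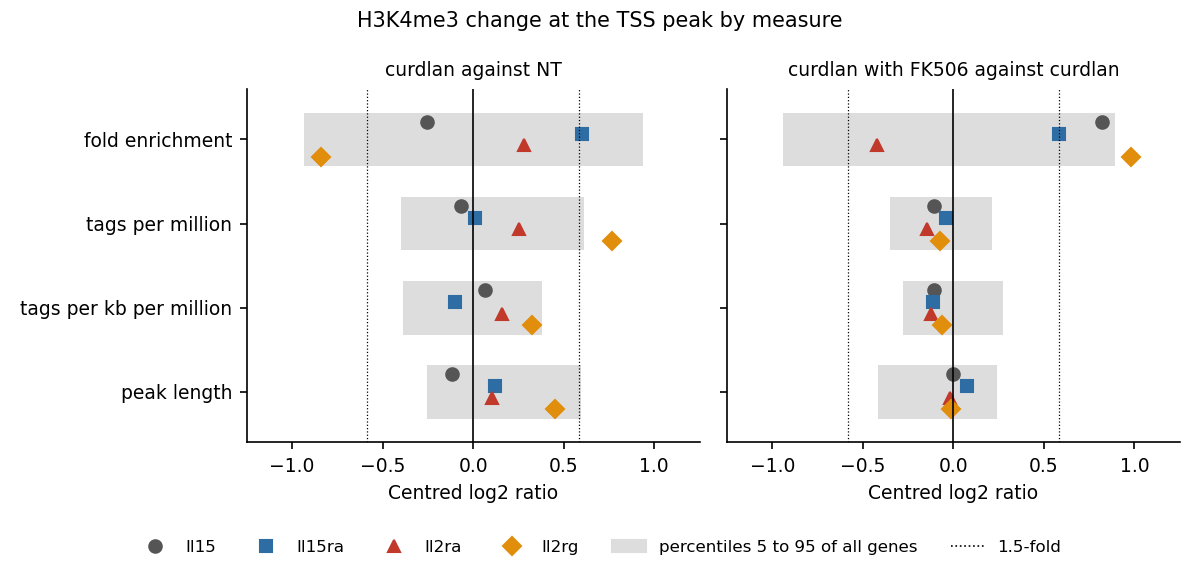
Centred log2 ratio of H3K4me3 at the TSS peak (x axis) by measure (y axis) for curdlan against NT (left) and curdlan with FK506 against curdlan (right). Points are the 4 marked genes, grey boxes run from percentile 5 to 95 of all genes with a peak in both lists, and dotted lines mark 1.5-fold. Il2rg lay left of 0 in fold enrichment and right of it in RPM with curdlan, and for FK506 all 4 points lay near 0 in the measures based on tags.

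Some of the NFATc2 summits lay in H3K4me3 peaks. Of the 17 summits, 6 lay in an H3K4me3 peak of NT cells, 4 in one after curdlan and 7 in one with FK506 added, beside 23.8%, 23.3% and 22.5% of all NFATc2 summits. At least 1 list held 7 of them, beside 26.7%. In all 3 lists it was 4 summits, beside 20.0%: the TSS summit and the +2648 bp summit of Il2ra, the intronic summit of Il15ra, and the summit 48.5 kb upstream of Il21. The last lay in a small H3K4me3 peak with no annotated TSS within 1 kb, which held 169 tags (10.1 RPM) in NT cells, 171 (8.03 RPM) after curdlan and 173 (8.89 RPM) with FK506 added. Near Il2rb the summit with 108 tags in Tmprss6 lay in a peak of 155 tags (9.30 RPM) in NT cells and of 206 tags (10.6 RPM) with FK506 added, and the curdlan list held no peak there. At the Rac2 site the curdlan peak was present with 732 tags (34.4 RPM) but began 256 bp from the summit. Peaks that reached it had 631 tags (37.9 RPM) in NT cells and 541 (27.8 RPM) with FK506 added.

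By fold enrichment over the 3 conditions, each marked gene had close matches among the 10745 other genes with a peak in every list. The measure was the Euclidean distance of 3 log2 values from 3 libraries. For Il15 these were Eral1 and Alkbh8 (distances 0.03 and 0.05), for Il15ra Zmym5 and Fnbp1l (0.03 and 0.03) and for Il2ra Dus3l and Kdm3a (0.03 and 0.05). For Il2rg they were Gm20489, which shares its peak, and Crim1 (0.08).

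The rest of the pathway was read from a list of 24 genes of the other common gamma chain cytokines, their receptors, the signalling proteins, and their targets and inhibitors. NFATc2 summits lay within 100 kb of 20 of them and within 10 kb of 14, beside 55.4% and 16.3% of all genes. The other ligand genes, Il4, Il7 and Il9, had 0 summits within 100 kb, while all 10 signalling genes and all 7 targets and inhibitors had at least 1. Cish and Socs3, feedback inhibitors induced through STATs, had 7 and 6 summits, the nearest at 0.209 and 0.024 kb. H3K4me3 peaks were present at 21 of the 24 in every list, and Il4, Il9 and Il9r had none. Il4, Il9 and Il9r also had 0 summits within 100 kb. The 20 genes with a summit were therefore all among the 21 marked ones. Of all genes marked in every list, 73.9% had a summit within 100 kb.

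With curdlan, 6 of these 21 genes were past 1.5-fold upward in fold enrichment and 2 downward, beside 14.4% and 14.8% of all genes. In RPM 3 were past it upward and 0 downward, beside 5.3% and 1.67%. The 3 were Stat5a and Stat5b, the STATs of the IL-2 receptor, and Socs3. Stat5a had 613 tags in NT cells, 2512 after curdlan and 2000 with FK506 added, Stat5b had 382, 796 and 761, and Socs3 had 1434, 3417 and 3147. Stat5a was at 1.80 in centred RPM and at 0.71 in fold enrichment, Stat5b at 0.83 and 0.47, and Socs3 at 1.02 and 0.58. Both measures gave a higher value with curdlan for each of these 3. In fold enrichment Stat5a was past 1.5-fold, and Stat5b and Socs3 were under it. The other 5 past it upward in fold enrichment were Jak1 (0.88, and 0.47 in RPM), Grb2 (0.74 and 0.13), Mcl1 (0.65 and 0.13), Bcl2 (0.63 and −0.04) and Syk (0.62 and −0.22). Those downward were Jak3 (−0.84 and −0.18), the kinase that binds the common gamma chain, and Pik3r1 (−0.67 and 0.34). Bcl2, Syk and Pik3r1 thus had opposite signs in the 2 measures. The median of the 21 was 0.23 in fold enrichment and 0.13 in RPM, where the median of all genes is 0 by construction.

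With FK506 added to curdlan, 1 of the 21 was past 1.5-fold upward in fold enrichment and 2 downward, beside 14.0% and 14.6% of all genes, so these shares were not above the background. The first was Pik3r1 (0.77, and −0.10 in RPM), and the others were Jak1 (−1.28 and −0.05) and Il4ra (−0.64 and 0.09). None was past it in RPM, beside 0.759% and 2.31%. The medians were −0.05 and 0.0045.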

How the data were processed

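ChIP-seq peak lists of D1 cells were used: 1 for NFATc2-V5 and 3 for H3K4me3. Reads had been aligned by the authors with bowtie 1 (genome mm9), and peaks had been called library by library against the input with MACS (1.4.2 in the headers), at a p-value of 1e-05 and with no more than 1 tag per position. The deposited lists give tags as counts, the p-value as −log10 times 10, the FDR in percent, and the fold enrichment, a ratio to the local background.

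Summits were set against the TSSs of all transcripts in Ensembl release 65 on NCBI build 37, which is mm9. Syk and Spi1 were matched through older symbols. The H3K4me3 value of a gene was that of its peak with the most tags within 1 kb of a TSS. Genes past 1.5-fold are counted without a test. Intervals are exact, at 95%, and cover counting error only. Named genes were the 7 genes, the genes nearest their summits or nearest peaks, members of the pathway list past 1.5-fold or without a peak, and 2 like genes each. Cish and Il7 fall outside this rule and were named after their values were seen. Members and lists were chosen with earlier results of these data known. Alternatives covered thresholds, windows, measures and centring, and peak length was added after seeing the data. Python 3.11.15, numpy 2.4.6, pandas 2.3.3 and scipy 1.17.1 were used, and 11 of 11 tests on simulated data passed.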

Additional observations from a re-analysis of the deposited data

How the results depend on the processing

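No paired analysis was possible because each condition had 1 library. At a p-value of 1e-10 or less the 17 summits became 5, the 4 at ligand genes 2, the 13 at receptor genes 3, and 3 of the 7 genes had one. Within 50 kb, receptor genes had 8 summits, with Il2rb at 2 in place of 7 and Il15ra at 1 in place of 6. Limits on FDR, a distance of 200 kb and the most 5′ TSS kept these counts within 1.5-fold. GGAAAA within 50 bp was found at 4 of 17 summits, beside 32.9% of all summits. With a p-value of 1e-10 or less in all lists, H3K4me3 held 2 summits in NT cells, 1 after curdlan and 2 with FK506 added. The presence of H3K4me3 at 4 genes held under every threshold and window tried.

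The 2 genes past 1.5-fold with curdlan became 1 in RPM, 0 in RPM per kb and 0 in peak length. Those past it with FK506 became 0 in each of these measures. Changes past 1.5-fold that turned sign are given first. With curdlan, Il15ra reversed to −0.10 in RPM per kb, and Il2rg reversed to 0.77 in RPM, 0.33 in RPM per kb and 0.45 in peak length. With FK506, Il15 reversed to −0.11 in RPM, −0.11 in RPM per kb and −0.0030 in peak length, and Il2rg to −0.076, −0.064 and −0.013. Under 1.5-fold, Il15 with curdlan went from −0.26 to 0.06 in RPM per kb and 0.48 without centring, and Il15ra with FK506 from 0.58 to −0.040 in RPM and −0.11 in RPM per kb. Without centring 2 genes were again past 1.5-fold in each contrast, but 1 of each pair was another: Il15ra (1.34) and Il2ra (1.01) with curdlan, and Il2ra (−0.69) and Il2rg (0.71) with FK506. The cause was not tested. Changes at these genes are limited by 1 library per condition.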
